A study of Mus musculus with 24 samples.

Results

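The proteasome genes were examined as a family: every gene on the array whose name begins with Psma, Psmb, Psmc, Psmd, Psme, Psmf or Psmg followed by a digit. The array names 49 such genes, and 47 of the 28235 genes kept for testing are among them. Psma8 (a testis form of an alpha subunit) was well above background on 0 of 24 arrays and Psmb11 (the thymus beta subunit) on 1, and both were left out. Of the 47 genes kept, 43 were well above background on all 24 arrays and the other 4 on 23. For each of those 4 the spot on the remaining array was an outlier spot and was left out. Psmb8, Psmb9 and Psmb10, which encode the interferon-inducible catalytic subunits of the immunoproteasome, were set apart from the rest. Psmc3ip shares the naming pattern but encodes a meiotic recombination factor, so it was kept and set apart as well, which leaves 43 genes of the constitutive particle, its regulators and its assembly factors.

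The proteasome is the barrel-shaped protease that degrades ubiquitin-tagged proteins. Its 20S core is built from outer rings of alpha subunits, which gate the channel, and inner rings of beta subunits, of which Psmb5, Psmb6 and Psmb7 carry the catalytic sites. The 19S cap, with its ring of ATPases (Psmc genes) and its non-ATPase subunits (Psmd genes), recognises, unfolds and feeds in the substrate. Other caps, the PA28 activators (Psme1, Psme2 and Psme3) and PA200 (Psme4), open the core without ATP. In striated muscle the system is best known for the breakdown of contractile proteins during atrophy, where the ligases Fbxo32 (atrogin-1) and Trim63 (MuRF1) mark the substrates.

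Left ventricles of 24 male mice were measured, 1 per array, in 4 groups of 6. mG4H STZ mice carried an inducible transgene for the glucose transporter GLUT4 that is expressed in cardiomyocytes and had received streptozotocin (STZ), a beta-cell toxin that causes diabetes, at 55 mg/kg on 5 consecutive days. mG4H VEH mice carried the transgene and received citrate buffer. CON STZ and CON VEH mice were the controls, given STZ or buffer in the same way. The transgene was induced 2 weeks after STZ and for 2 more weeks. The labels give no strain or age, and they state that every group held at least 1 sibling of an animal in another group. Blood glucose at 4 weeks, for which the labels give no unit, was 500 to 601 in mG4H STZ mice and 131 to 152 in mG4H VEH mice. It was 600 to 601 in CON STZ mice and 117 to 164 in CON VEH mice. The transgene acts in cardiomyocytes while the RNA came from the whole left ventricle, so fewer cells of a type and less RNA per cell cannot be told apart in any value below.

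All levels are log2 signals relative to the array's own 75th percentile, so that 0 is the 75th percentile of that array and a difference of 1 is a doubling. Where a gene had several probes, the brightest was used. Levels of different genes come from different probes and are not set against each other. Differences between groups were tested with limma, a linear model fitted across all genes, and a gene was called where its Benjamini-Hochberg adjusted p over all 28235 genes was under 0.05. The 75th percentile signal was 370 to 583 units across arrays, and between 58.5% and 76.3% of gene spots exceeded background clearly on each. Precision is set by the 6 arrays in a group. The arrays lay on 4 slides, of which slides 1 to 3 held all groups and slide 4, scanned apart, held only replicate 3 of mG4H VEH and of CON VEH. The first principal component over all genes carried 43% of the variance, and 86.7% of that component's variance lay between slides. Among the proteasome genes measured on every array the median share of variance between slides was 18.4%, against 30.6% over all genes.

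The Slc2a4 probe, for the gene that encodes GLUT4, was 5.66 to 6.94 with a median of 6.37 in mG4H STZ hearts and 6.33 to 6.61 with a median of 6.57 in mG4H VEH hearts. It was 5.60 to 6.42 with a median of 6.25 in CON STZ hearts and 6.51 to 6.93 with a median of 6.76 in CON VEH hearts. Neither mG4H group was called higher than the CON group of the same treatment: the log2 difference was 0.20 for mG4H STZ minus CON STZ and -0.20 for mG4H VEH minus CON VEH. The labels do not say whether the transgene contains the probe's sequence, so the probe does not check the genotype labels. Slc2a4 fell in CON STZ hearts relative to CON VEH hearts, by 0.58 on the log2 scale (adjusted p = 0.0436), a call lost in 12 of the alternative settings. Of the 8 cardiomyocyte markers examined, 8 were measured, and Ckm (muscle creatine kinase) was the one called in CON STZ hearts, where 3.96% of all genes were called.

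No proteasome gene was called in any of the comparisons. In CON STZ against CON VEH hearts 0 of 47 genes passed, where 3.96% of all genes did. In mG4H STZ against mG4H VEH hearts the count was 0 of 47, against 0.266% of all genes. The transgene comparisons gave 0 of 47 in vehicle-treated hearts (0.0815% of all genes) and 0 of 47 in diabetic hearts (0.0106%). The test of whether the STZ difference itself differed between the genotypes gave 0 of 47 (0% of all genes). In the same limma fits, an unadjusted p under 0.05 was reached by 5 members in CON STZ hearts (14.3% of all genes), 5 in mG4H STZ hearts (14% of all genes), 1 for the transgene in vehicle-treated hearts (2.87%), 2 for the transgene in diabetic hearts (3.55%) and 0 in the test between genotypes (1.77%). With slide as a random block 1 gene was called, Psme3 in CON STZ hearts, and its probe is described below.

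The intervals show how large a difference these arrays leave room for. In CON STZ against CON VEH hearts the 95% interval lay within 1.5-fold in either direction for 45 of 47 genes. In mG4H STZ against mG4H VEH hearts it lay within 1.5-fold for 44 genes. The genes whose interval reached past 1.5-fold were Psmb9 and Psmd11 in both STZ comparisons and Psmd7, a structural subunit of the 19S lid, in mG4H hearts. For the transgene, 46 of 47 intervals lay within 1.5-fold in vehicle-treated hearts, Psmb9 being the exception, and 46 in diabetic hearts, Psme4 being the exception. No interval reached past 1.85-fold in any of these comparisons. The SD behind each interval is shared by all groups. The SD of Psmd11 was 0.494 in mG4H STZ and 0.358 in CON STZ hearts, but 0.044 in mG4H VEH and 0.079 in CON VEH hearts. For Psmb9 the SDs were 0.585, 0.393, 0.139 and 0.137 in the same order. For such genes the interval for mG4H STZ minus CON STZ is narrower than the spread of those groups would give.

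**Figure D1:**
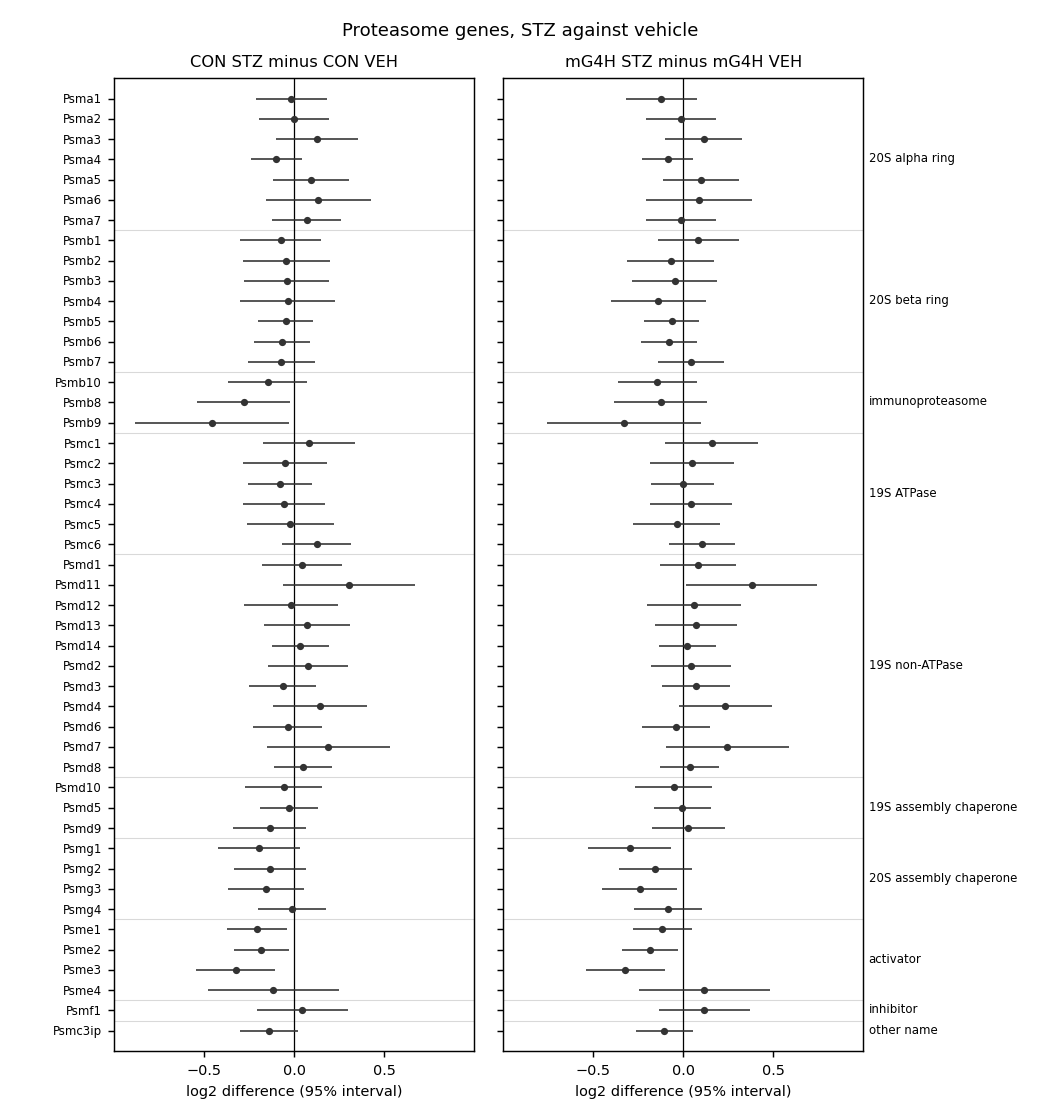
Log2 difference of STZ minus vehicle hearts for the 47 proteasome genes, in CON hearts (left) and mG4H hearts (right), with points for the estimate and bars for the 95% interval, grouped by role. The widest interval on the left is that of Psmb9, which reaches past 1.5-fold, as does that of Psmd11.

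The members were also less variable than most genes. The median within-group SD of the 47 genes was 0.168 on the log2 scale, against 0.337 over all genes. The least variable was Psma4 (an alpha subunit) at 0.0941, and the most variable was Psmb9 at 0.365. The log2 difference was above 0 for 15 of 47 genes in CON STZ hearts, against 55.2% of all genes, with a median of -0.04 against 0.03 for all genes. In mG4H STZ hearts it was above 0 for 22 of 47, against 60.5% of all genes, with a median of -0.0043 against 0.06. For the transgene it was above 0 for 31 genes in vehicle-treated hearts (47.3% of all genes; median 0.03 against -0.0084) and for 38 in diabetic hearts (54.2%; median 0.06 against 0.02). In the test between genotypes it was above 0 for 27 genes (55% of all genes).

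In the 20S core, the 7 alpha subunits (Psma1 to Psma7) had a median log2 difference of 0.07 in CON STZ and -0.01 in mG4H STZ hearts, with 0 of 7 called. Psma4 had the smallest p of the ring in CON STZ hearts, with 3.91 to 4.19 (median 3.99) against 4.00 to 4.20 (median 4.13) in CON VEH hearts. The groups overlapped, and the difference was -0.10 ± 0.068 (SE, adjusted p = 0.632). The 7 constitutive beta subunits had differences between -0.08 and -0.04 in CON STZ hearts, with 0 of 7 called. In mG4H STZ hearts 5 of these 7 differences were below 0.

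The catalytic beta subunits had the following values. Psmb5, which carries the chymotrypsin-like site, was 7.07 to 7.41 with a median of 7.18 in CON STZ hearts and 7.11 to 7.44 with a median of 7.24 in CON VEH hearts. Psmb6, the caspase-like subunit, was 6.62 to 6.97 with a median of 6.80 in CON STZ hearts and 6.76 to 6.96 with a median of 6.87 in CON VEH hearts. Psmb7, the trypsin-like subunit, was 3.32 to 3.78 with a median of 3.47 in CON STZ hearts and 3.50 to 3.70 with a median of 3.57 in CON VEH hearts. The groups overlapped for all 3 genes, and the differences were -0.05, -0.07 and -0.07, with adjusted p of 0.953, 0.887 and 0.916. In the mG4H genotype Psmb5 was 7.15 to 7.39 with STZ and 7.23 to 7.45 with vehicle, Psmb6 6.70 to 7.01 and 6.83 to 7.02, and Psmb7 had medians of 3.47 and 3.54. Those groups overlapped too. Psmb1, a non-catalytic beta subunit, was among the 3 genes with the smallest p in the test between genotypes, with levels of 4.79 to 5.36 in mG4H STZ, 4.83 to 5.10 in mG4H VEH, 4.68 to 5.30 in CON STZ and 4.92 to 5.23 in CON VEH hearts; the difference was 0.16 ± 0.154 (SE, adjusted p = 1.0).

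The immunoproteasome subunits replace the catalytic ones in cells exposed to interferon gamma and in immune cells, and shape the peptides shown on MHC class I. None of the 3 was called, and their STZ differences lay between -0.46 and -0.13 over both genotypes. Psmb9, which takes the place of Psmb6, was 0.79 to 1.90 with a median of 1.61 in CON STZ hearts and 1.77 to 2.17 with a median of 1.99 in CON VEH hearts. Its difference was -0.46 ± 0.206 (SE, adjusted p = 0.294), and within slides 1, 2 and 3 it was -0.13, -0.50 and -0.81. In the mG4H genotype Psmb9 was 0.70 to 2.08 with a median of 1.65 with STZ and 1.58 to 2.01 with a median of 1.81 with vehicle. The STZ hearts there span the whole vehicle range and go below it, and the difference was -0.33 ± 0.206 (SE, adjusted p = 0.524).

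Psmb8, the counterpart of Psmb5, was 1.37 to 2.02 with a median of 1.79 in CON STZ hearts and 1.83 to 2.19 with a median of 2.11 in CON VEH hearts. The groups overlapped, with a difference of -0.28 ± 0.124 (SE, adjusted p = 0.273). In mG4H hearts Psmb8 was 1.32 to 2.09 with a median of 1.83 with STZ and 1.80 to 1.96 with a median of 1.82 with vehicle, a difference of -0.13. For mG4H VEH minus CON VEH hearts the Psmb8 difference was -0.21 ± 0.124 (SE, adjusted p = 1.0). Psmb10, the counterpart of Psmb7, was 4.90 to 5.63 with a median of 5.38 in CON STZ hearts and 5.33 to 5.60 with a median of 5.50 in CON VEH hearts, a difference of -0.15 (adjusted p = 0.671). In mG4H hearts it was 4.94 to 5.49 with a median of 5.25 with STZ and 5.33 to 5.47 with a median of 5.41 with vehicle, a difference of -0.14.

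The lowest values of all 3 genes lay on the same 3 STZ arrays, CON STZ replicate 3 and mG4H STZ replicates 3 and 5. Without those arrays the difference of Psmb9 was -0.31 in CON hearts and 0.03 in mG4H hearts, and that of Psmb8 was -0.20 and 0.06, with 0 called. Those arrays held the lowest values, so leaving them out had to raise these differences, and the values without them are a description. Immune-cell markers, which matter because leukocytes carry these subunits at high levels, were examined beside them. Of 6 T-cell markers 0 were called by limma in either STZ comparison, with 1 in CON and 3 in mG4H hearts at an unadjusted p under 0.05. In each genotype 1 of the 6 STZ differences was above 0, with medians of -0.18 in CON and -0.31 in mG4H hearts. The summed T-cell level was 1.95 to 3.09 in mG4H STZ, 2.34 to 3.16 in mG4H VEH, 1.81 to 3.05 in CON STZ and 2.13 to 3.15 in CON VEH hearts, in multiples of the array's 75th percentile. Of 4 natural killer cell markers 0 were called, with 0 of 4 STZ differences above 0 in CON and 1 of 4 in mG4H hearts. Of 6 macrophage markers measured 0 were called, with 1 at an unadjusted limma p under 0.05 in each genotype. Their STZ differences were above 0 for 6 of 6 in CON and 4 of 6 in mG4H hearts. Their median sums were 25.1 in mG4H STZ, 23.2 in mG4H VEH, 29.7 in CON STZ and 24.2 in CON VEH hearts. The highest single sums lay in the STZ groups (34.5 and 34.8). Of 4 B-cell markers 0 were called, with 2 at an unadjusted p under 0.05 in mG4H hearts, a median log2 difference of -0.62 in mG4H and -0.53 in CON hearts, and median sums of 0.46 in mG4H STZ, 0.64 in mG4H VEH, 0.36 in CON STZ and 0.63 in CON VEH hearts. Both pan-leukocyte markers were measured and not called. Their sums were 0.96 to 3.60 (median 2.55) in mG4H STZ and 2.34 to 3.27 (median 2.81) in mG4H VEH hearts. They were 1.13 to 4.22 (median 2.88) in CON STZ and 2.38 to 2.98 (median 2.48) in CON VEH hearts. The STZ differences were -0.06 for Ptprc and 0.04 for Coro1a in CON hearts, and -0.21 and -0.38 in mG4H hearts. Over all genes, the share with an unadjusted limma p under 0.05 was 14.3% in CON STZ and 14% in mG4H STZ hearts. The part of immune cells in the Psmb8 to Psmb10 values was not tested.

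**Figure D2:**
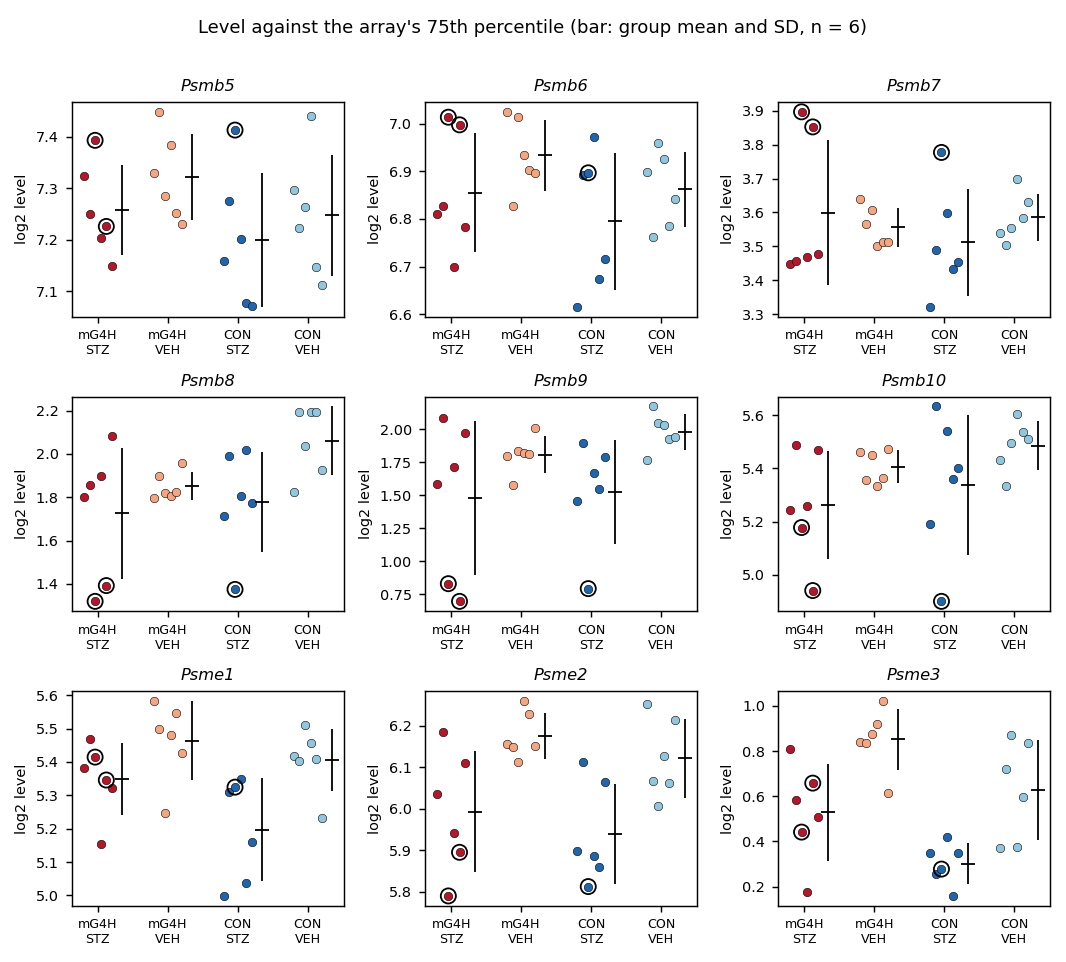
Level of the catalytic beta subunits (top), their immunoproteasome counterparts (middle) and the PA28 activator genes (bottom) on each array, by group, as log2 relative to the array's 75th percentile, with bars for the group mean and SD (n = 6). Open rings mark CON STZ replicate 3 and mG4H STZ replicates 3 and 5, which are the 3 lowest of 24 arrays for each immunoproteasome gene; vertical axes differ between panels and do not start at 0.

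In the 19S cap, the 6 ATPases (Psmc1 to Psmc6) had a median log2 difference of -0.04 in CON STZ and 0.05 in mG4H STZ hearts, with 0 of 6 called. Psmc6 had the smallest p of that ring in CON STZ hearts, with 4.15 to 4.62 (median 4.36) against 4.15 to 4.34 (median 4.25) in CON VEH hearts, a difference of 0.12 ± 0.093 (SE, adjusted p = 0.711). It was 4.30 to 4.81 in mG4H STZ and 4.24 to 4.43 in mG4H VEH hearts. One array's Psmc6 spot, on CON STZ replicate 4, was an outlier spot and is missing from that fit. The 11 non-ATPase subunits had medians of 0.05 and 0.07, with 8 and 10 of 11 differences above 0 and 0 called in either genotype.

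Psmd11, the lid subunit that limits 26S assembly in human stem cells, had the largest positive difference of all members. It was 3.99 to 5.00 with a median of 4.20 in CON STZ hearts and 3.92 to 4.10 with a median of 4.00 in CON VEH hearts. It was 3.96 to 5.12 with a median of 4.17 in mG4H STZ hearts and 3.96 to 4.08 with a median of 4.03 in mG4H VEH hearts. The STZ groups were spread far wider, since 3 of their 12 arrays reached 4.95 or more while the others lay at or a little above the vehicle levels. The differences were 0.30 ± 0.176 in CON hearts (SE, adjusted p = 0.502) and 0.38 ± 0.176 in mG4H hearts (adjusted p = 0.330). Without those 3 arrays they were 0.16 and 0.07. Those arrays held the highest values, so leaving them out had to lower the differences.

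Psmd4, the ubiquitin receptor of the cap, differed by 0.14 in CON STZ and 0.23 in mG4H STZ hearts, and Psmd7 by 0.19 and 0.25. Psmd3, a scaffold subunit of the lid, was 6.33 to 6.71 in CON STZ and 6.54 to 6.65 in CON VEH hearts, with a difference of -0.07. It was 6.36 to 6.93 in mG4H STZ and 6.44 to 6.69 in mG4H VEH hearts, and the difference between the STZ responses of the genotypes was 0.14 ± 0.128 (SE, adjusted p = 1.0). The chaperones that assemble the base of the cap (Psmd5, Psmd9 and Psmd10) had 0 of 3 called. Psmd9 had the smallest p in the test between genotypes, with 0.17 ± 0.138 (SE, adjusted p = 1.0). It was 0.48 to 1.15 (median 0.76) in mG4H STZ, 0.61 to 0.84 (median 0.76) in mG4H VEH, 0.44 to 0.75 (median 0.60) in CON STZ and 0.60 to 0.88 (median 0.76) in CON VEH hearts, so all 4 groups overlapped.

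The chaperones that build the 20S core (Psmg1 to Psmg4) had STZ differences with medians of -0.15 in CON and -0.20 in mG4H hearts, all below 0, with Psmg4 in CON hearts nearest to 0 at -0.01, with 0 of 4 called. Psmg1, which with Psmg2 nucleates the alpha ring, was 4.17 to 4.55 with a median of 4.43 in CON STZ hearts and 4.47 to 4.64 with a median of 4.62 in CON VEH hearts. It was 3.75 to 4.58 with a median of 4.44 in mG4H STZ hearts and 4.53 to 4.71 with a median of 4.60 in mG4H VEH hearts. In both genotypes every STZ array lay below the vehicle median, and the groups overlapped. The differences were -0.20 ± 0.110 (SE, adjusted p = 0.484) in CON and -0.30 ± 0.110 (adjusted p = 0.216) in mG4H hearts. Without the 3 STZ arrays that stood apart in the members' values they were -0.15 and -0.12. Its other probe gave -0.21 and -0.38 on all arrays. Psmg3, which with Psmg4 acts later in ring assembly, differed by -0.16 in CON and -0.24 in mG4H hearts.

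In CON STZ against CON VEH hearts the smallest limma p-values of the family were those of Psme1, Psme2 and Psme3. PA28 alpha (Psme1) and PA28 beta (Psme2) form the interferon-inducible cap of the cytoplasmic proteasome. Psme1 was 5.00 to 5.35 with a median of 5.24 in CON STZ hearts and 5.23 to 5.51 with a median of 5.41 in CON VEH hearts. Psme2 was 5.81 to 6.11 with a median of 5.89 in CON STZ hearts and 6.01 to 6.25 with a median of 6.10 in CON VEH hearts. Of the 6 CON STZ arrays, 6 lay below the vehicle median for Psme1 and 5 for Psme2, and the groups overlapped. The differences were -0.21 ± 0.080 for Psme1 (SE, adjusted p = 0.180) and -0.18 ± 0.075 for Psme2 (adjusted p = 0.223).

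In the mG4H genotype Psme1 was 5.16 to 5.47 with a median of 5.36 with STZ and 5.25 to 5.58 with a median of 5.49 with vehicle, a difference of -0.12 (adjusted p = 0.584). Psme2 was 5.79 to 6.19 with a median of 5.99 with STZ and 6.11 to 6.26 with a median of 6.15 with vehicle, a difference of -0.18 (adjusted p = 0.261). Within slides 1, 2 and 3 the CON difference was -0.07, -0.25 and -0.25 for Psme1 and -0.26, -0.06 and -0.26 for Psme2. The Psme1 value rests on 10 spots per array. The brightest Psme2 probe also lists the near-identical copy Psme2b, so its signal may be split between them, and the other Psme2 probes gave -0.15 and -0.09 in CON hearts. Psme4, which encodes PA200, was 2.70 to 4.00 with a median of 3.03 in mG4H STZ hearts and 2.46 to 3.13 with a median of 2.71 in CON STZ hearts. These groups overlapped, with a difference of 0.38 ± 0.176 (SE, adjusted p = 1.0), and without the 3 arrays it was 0.17. Psmf1, which encodes the inhibitor PI31, had medians of -0.74 in mG4H STZ, -0.82 in mG4H VEH, -0.88 in CON STZ and -0.91 in CON VEH hearts, and differed by 0.12 and 0.04 between STZ and vehicle in mG4H and CON hearts. Psmc3ip, the gene outside the particle, had medians of 2.30 in mG4H STZ, 2.43 in mG4H VEH, 2.21 in CON STZ and 2.40 in CON VEH hearts, and its STZ differences were -0.10 and -0.14.

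Psme3, which encodes PA28 gamma, the nuclear activator, had the smallest adjusted p of all members. Its level was 0.16 to 0.42 with a median of 0.31 in CON STZ hearts and 0.37 to 0.87 with a median of 0.66 in CON VEH hearts. It was 0.18 to 0.81 with a median of 0.55 in mG4H STZ hearts and 0.61 to 1.02 with a median of 0.86 in mG4H VEH hearts. CON STZ hearts were lowest and mG4H VEH hearts highest, with 60.7% of the variance between groups, the highest share of any member. The STZ difference was -0.33 ± 0.105 in CON hearts (SE, adjusted p = 0.0929) and -0.32 ± 0.105 in mG4H hearts (adjusted p = 0.167). With slide as a random block the CON difference was -0.32 and was called (adjusted p = 0.0475). Within slides 1, 2 and 3 it was -0.22, -0.42 and -0.27. The Psme3 difference was 0.22 ± 0.105 for mG4H VEH minus CON VEH hearts and 0.23 ± 0.105 for mG4H STZ minus CON STZ hearts (SE, adjusted p = 1.0 for both).

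The sequence of the Psme3 probe bears on these values and is shown for that reason. The array's 60-base probe lies at chr11:101184289-101184348 (mm9, 5′ to 3′ in the probe's own orientation), and 37 of its bases fall in runs of at least 3 TG or CA units. The stretch of 30 bases from base 22 holds 25 of them, marked in capitals.
Psme3 probe, bases from 22: acaTGTGTGTGTGTGTtcGTGTGTGTGTGT
Only 45 of 39766 probes kept (0.113%) hold 30 or more such bases. Of these, 35 are mostly TG, the Psme3 probe among them, and their median difference was -0.46 in CON STZ, -0.30 in mG4H STZ, 0.13 for mG4H VEH minus CON VEH and 0.29 for mG4H STZ minus CON STZ. The 10 that are mostly CA had medians of 0.48, 0.25, -0.07 and -0.27 in the same comparisons. In their medians the TG probes, which belong to many different genes, thus differed in the same direction as Psme3, and the CA probes in the opposite one. For mG4H VEH minus CON VEH the Psme3 value was the highest of the 35 TG probes. How much of this probe's signal came from Psme3 transcripts was not tested. Among the 58 member probes with a sequence, the other one with 12 or more repeat bases is the dimmer probe of Psma4, which was not used for the Psma4 level.

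**Figure D3:**
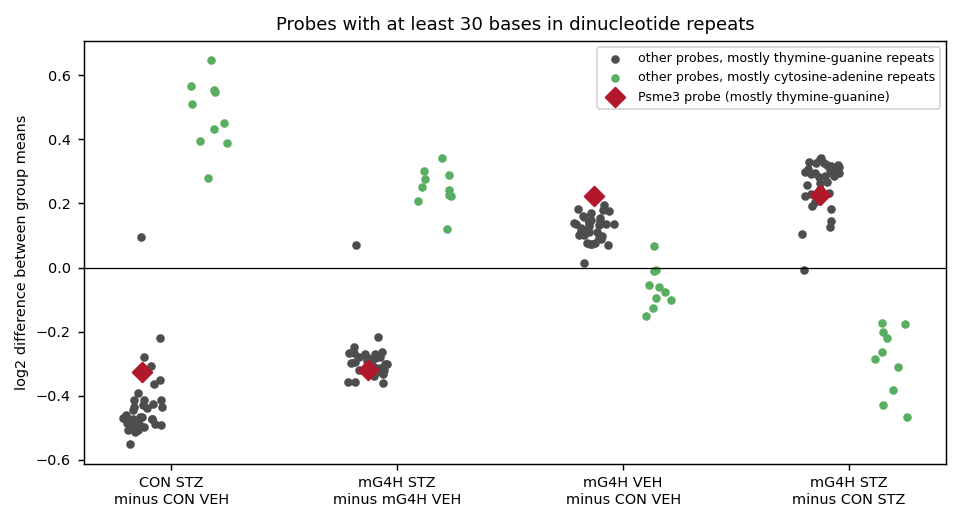
Log2 difference between group means, for 4 comparisons, of each probe with at least 30 bases in dinucleotide repeats (35 mostly thymine-guanine including Psme3, 10 mostly cytosine-adenine); the diamond is the Psme3 probe. The diamond sits within the cloud of the other thymine-guanine probes in the STZ comparisons, and the cytosine-adenine probes lie on the other side of 0.

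Each STZ comparison rests on 6 animals a group, so a further contrast was taken over both genotypes after the values had been seen: the mean of the STZ groups minus the mean of the vehicle groups. In it 3 of 47 proteasome genes were called, against 10.3% of all genes. An unadjusted limma p under 0.05 was reached by 11 of the 47, and by 6305 of all 28235 genes. Psme3 fell by 0.32 on the log2 scale (adjusted p = 0.00716), Psme2 fell by 0.18 (adjusted p = 0.0286) and Psmg1 fell by 0.25 (adjusted p = 0.0459). The share called was below that of all genes. Which genes were called depended on the setting. With slide as a random block they were Psme1, Psme2, Psme3 and Psmg1, with slide as a fixed block or without slide 4 Psme2 and Psme3, with normexp Psme1, Psme3, Psmg1 and Psmg3, and with quantile normalization Psme1, Psme3 and the 19S genes Psmd4 and Psmd11. With every array scaled to its median none was. Without the 3 arrays described next, Psme3 was called alone, at -0.33 (adjusted p = 0.0155). Psme2 (-0.13, adjusted p = 0.0971) and Psmg1 (-0.14, adjusted p = 0.0931) were then not called. Those arrays were picked by the members' own values, so this refit is a description.

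The members did not vary independently of each other between arrays. After the means of group and slide were removed, the median correlation between pairs of the 39 constitutive members measured on all 24 arrays was 0.38, against 0.05 between these members and every other gene. These arrays share dissection, labelling and scaling, so the values are a description. Within the ATPase ring the median pair correlation was 0.86, within the alpha ring 0.68 and within the immunoproteasome set 0.81. Psmb8 and Psmb9, neighbouring genes of the MHC region, had r = 0.90. The PA28 partners Psme1 and Psme2 had r = -0.01.

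Among the arrays, 3 from STZ hearts stood apart: CON STZ replicate 3 and mG4H STZ replicates 3 and 5, which lay on slides 3, 3 and 1. They were picked out by the members' own values, so their levels are given per array and no test was made of them. For the same reason, fits without them are a description. These arrays were the 3 highest of 24 arrays for 16 of the 47 members. Of the 43 members measured on every array the count was 14, or 32.6%, against 6.26% of all genes so measured. Picking the arrays by the members' values raises the members' share, so these shares are a description and not a result about the members. The 16 members were 3 alpha subunits (Psma2, Psma5, Psma6), 3 beta subunits (Psmb1, Psmb4, Psmb7), 3 ATPases (Psmc1, Psmc4, Psmc6) and 7 non-ATPase subunits (Psmd1, Psmd2, Psmd4, Psmd6, Psmd7, Psmd11, Psmd12). The same arrays were the 3 lowest for 4 members, Psmb8, Psmb9, Psmb10 and Psmg1. That is 9.3% of the 43 measured on every array, against 5.66% of all genes so measured.

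Psmd11 was 5.00, 4.95 and 5.12 on CON STZ replicate 3 and mG4H STZ replicates 3 and 5, in that order, and 3.92 to 4.31 on the other 21 arrays. Psmd7 was 5.47, 5.24 and 5.57, and 4.43 to 4.94 on the others. Psmc1 was 6.97, 6.89 and 6.98, and 6.27 to 6.65 on the others. These cap subunits thus stood clear of every other array in 3 of 12 diabetic hearts, from both genotypes. Psmb9 was 0.79, 0.83 and 0.70, and 1.45 to 2.17 on the others, and Psmb8 was 1.37, 1.32 and 1.39 against 1.71 to 2.19. The mean of the constitutive set, each gene taken from its mean over arrays, was 0.15, 0.15 and 0.26 on the same arrays, and that of the immunoproteasome genes was -0.62, -0.53 and -0.63.

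**Figure D4:**
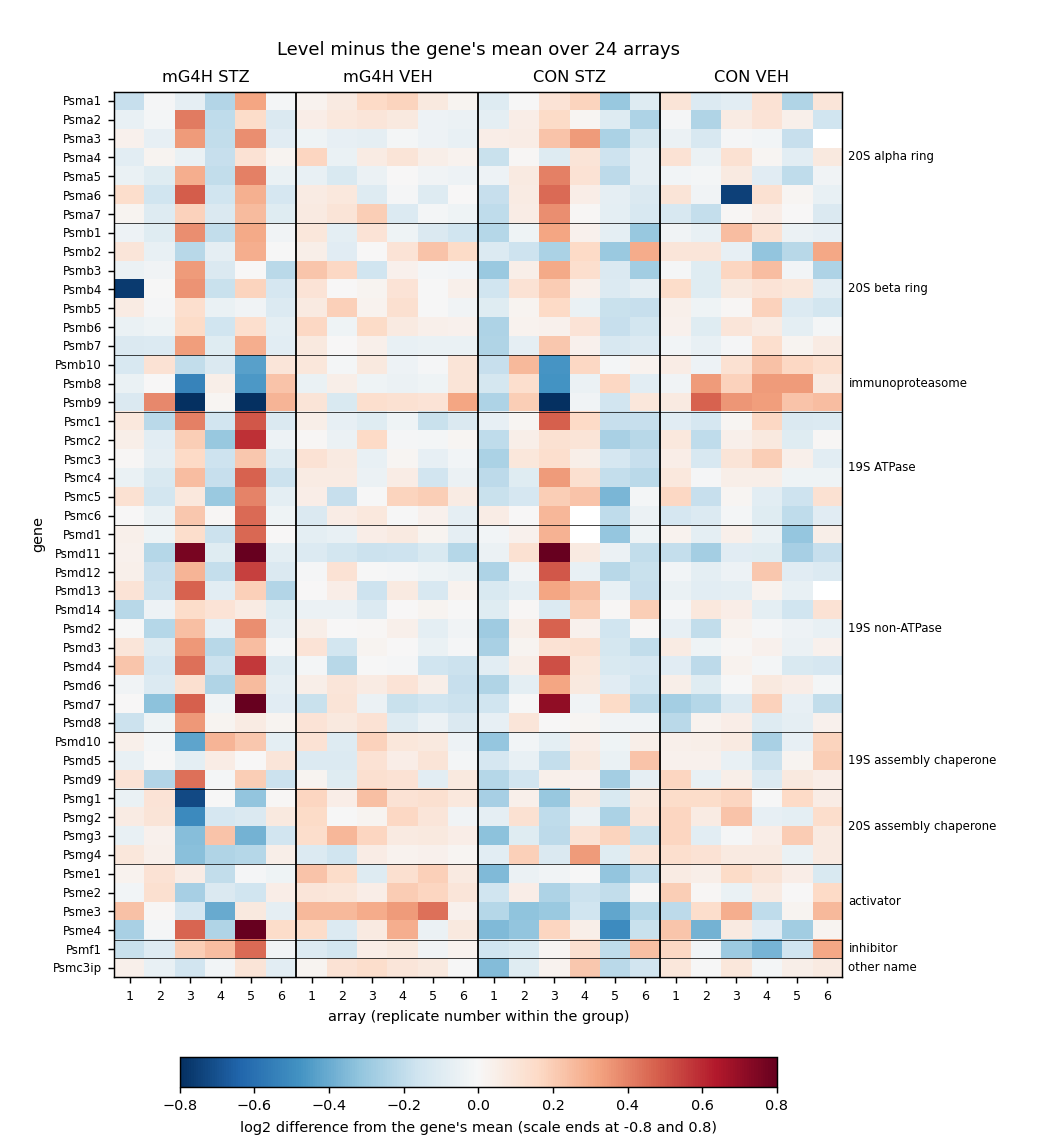
Level of the 47 proteasome genes on the 24 arrays as the log2 difference from the gene's mean, by group and replicate, with rows grouped by role; white cells without colour mark outlier spots left out. CON STZ replicate 3 and mG4H STZ replicates 3 and 5 are high for many 19S cap genes and some core genes and low for Psmb8, Psmb9 and Psmb10.

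The atrophy ligases were high on the same arrays. Trim63 was 6.55, 6.16 and 7.02 on them and 5.09 to 5.57 on the other 21, and Fbxo32 was 3.89, 4.36 and 5.96 against 1.89 to 3.15. Nfe2l1, the transcription factor that induces proteasome genes when the proteasome is impaired, was 1.73, 1.80 and 1.93 against a highest value of 1.5 on the others. Irf1 and the interferon gamma receptor chain Ifngr2, which act upstream of the immunoproteasome genes, were lowest there, with Irf1 at 2.96, 2.19 and 2.84 against 3.15 to 3.72 and Ifngr2 at 3.95, 3.98 and 3.95 against 4.28 to 5.07. Both were picked from a list of 12 interferon and MHC class I partners, whose other members are not given per array. Of that list, 2 of 12 STZ differences were above 0 in CON hearts and 5 of 12 in mG4H hearts. Col1a1, a fibroblast gene, was 3.67, 4.99 and 3.56 against 4.59 to 6.30, and Pecam1, an endothelial gene, was 1.21, 1.35 and 1.61 against 0.61 to 1.23. Myh6, a cardiomyocyte gene, was 9.43, 9.34 and 8.82 against 8.75 to 9.40. These genes do not stand for their lists. In mG4H hearts the STZ difference of Col1a1 was -0.33, while 3 of 4 fibroblast markers were above 0. In CON hearts Pecam1 differed by 0.15, and 1 of 4 endothelial markers was above 0. The 3 arrays' 75th percentile signals (372, 370 and 499) and shares of spots above background (70.7%, 67.7% and 61.9%) were measured too, and the signal of mG4H STZ replicate 3 was below that of every other array. What sets these hearts apart was not tested.

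**Figure D5:**
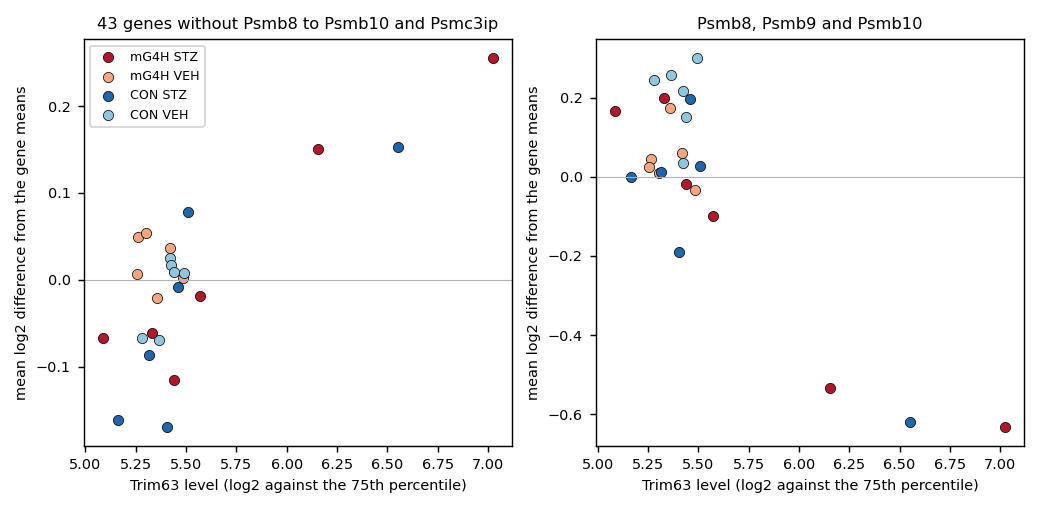
Mean log2 difference from the gene means of 43 constitutive members (left) and of Psmb8, Psmb9 and Psmb10 (right) on each array, against the level of Trim63, coloured by group. The 3 arrays with Trim63 above 6 are the highest on the left and the lowest on the right among the 24, and the other 21 lie at Trim63 levels of 5.09 to 5.57.

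Over 24 arrays with group and slide means removed, Psmd11 and Trim63 had r = 0.95 and Psmd11 and Fbxo32 r = 0.86. Over the 21 arrays without those 3, these values were 0.61 and -0.06. Psmb9 and Ifngr2 had r = 0.97 over 24 arrays and 0.84 over 21, and Psmb9 and Irf1 0.85 and 0.66. For the other interferon and MHC class I partners, r with Psmb9 over 24 arrays ran from -0.63 (the other receptor chain, Ifngr1) to 0.79 (Nlrc5). Tapbp was also below 0, at -0.26. Psmb9 and Psmd11 had r = -0.90 over 24 arrays and -0.29 over 21. Over 21 arrays the median pair correlation was 0.32 for the constitutive set, 0.74 in the ATPase ring, 0.51 in the alpha ring and 0.65 in the immunoproteasome set. The beta ring had 0.63 over 24 arrays and 0.33 over 21, and the 20S chaperones 0.59 and 0.29. Psmb10 and Psmb7 changed sign, with r = -0.36 over 24 arrays and 0.73 over 21. With those arrays left out, 0 of 47 members were called in each of the 5 comparisons. The median log2 difference of the members was then -0.08 in CON STZ and -0.09 in mG4H STZ hearts, with 13 and 7 of 47 above 0. Over all genes the medians without those arrays were -0.02 and 0.04, with 12955 and 16476 of 28235 above 0.

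The other genes of the pathway were examined in lists. Of 11 proteasome-associated genes measured (deubiquitinases, receptors and recycling factors), 0 were called in any comparison. Of 7 genes of the Nfe2l1 axis 0 were called, and Ddi2, the protease that activates Nfe2l1, differed by 0.48 in CON STZ (adjusted p = 0.127) and 0.48 in mG4H STZ hearts (adjusted p = 0.189). None of the 6 ubiquitin and E1 genes, the 5 shuttle factors that carry ubiquitinated substrates, or the 12 muscle ubiquitin ligases was called by limma in any comparison. Of the 12 ligases, 3 had an unadjusted limma p under 0.05 in CON STZ hearts, where 14.3% of all genes did. In mG4H STZ hearts 2 of the ligases did, against 14% of all genes. Among 12 interferon and MHC class I partners, 1 was called in CON STZ hearts, where 3.96% of all genes were. It was Ifngr2, which fell there, with 3.95 to 4.59 (median 4.43) against 4.90 to 5.07 (median 4.95) in CON VEH hearts. The limma difference was -0.60 ± 0.130 (SE, adjusted p = 0.0109). In mG4H STZ hearts the Ifngr2 difference was -0.53 (adjusted p = 0.0826).

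Since the members moved together on some arrays, their promoters are shown for 3 genes with motifs that were searched, chosen as one each from the cap, the core and the PA28 activator. RefSeq promoters of GRCm38.p6, from 250 bases before to 50 after the start, were matched for 40 of the 47 members. The capitals mark the motif named with each gene, searched on both strands, with positions counted from the start.
Psmd11, chr11:80428365-80428664, plus strand, CCGGAAG on the reverse strand from -11: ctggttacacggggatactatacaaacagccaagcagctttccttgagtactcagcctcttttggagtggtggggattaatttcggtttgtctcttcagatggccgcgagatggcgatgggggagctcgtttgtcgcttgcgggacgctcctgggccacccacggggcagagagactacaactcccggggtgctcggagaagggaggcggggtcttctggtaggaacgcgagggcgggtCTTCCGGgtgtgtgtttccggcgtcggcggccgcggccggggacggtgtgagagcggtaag
Psmb6, chr11:70525107-70525406, plus strand, TGACNNNGC from -9: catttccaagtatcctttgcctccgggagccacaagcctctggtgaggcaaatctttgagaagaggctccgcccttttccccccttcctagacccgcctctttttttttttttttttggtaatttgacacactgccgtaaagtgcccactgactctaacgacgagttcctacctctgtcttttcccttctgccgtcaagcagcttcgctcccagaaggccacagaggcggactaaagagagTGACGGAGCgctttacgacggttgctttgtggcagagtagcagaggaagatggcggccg
Psme1, chr14:55578244-55578543, plus strand, GAAANNGAAA on the reverse strand from 10: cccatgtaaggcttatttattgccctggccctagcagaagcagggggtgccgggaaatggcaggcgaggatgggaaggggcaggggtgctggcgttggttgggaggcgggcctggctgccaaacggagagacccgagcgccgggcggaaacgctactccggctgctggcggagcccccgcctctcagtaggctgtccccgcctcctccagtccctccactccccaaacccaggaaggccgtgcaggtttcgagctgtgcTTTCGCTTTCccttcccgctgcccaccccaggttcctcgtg
The ETS motif CCGGAAG was present in 15 of 40 member promoters (37.5%), against 8.86% of 32851 promoters. The antioxidant response motif TGACNNNGC, the form bound by Nfe2l1 and its relatives, was in 6 of 40 (15%), against 12.4%. The interferon-stimulated motif GAAANNGAAA was in 5 of 40 (12.5%), against 3.44%, and Psme1 was one of them while Psmb8, Psmb9 and Psmb10 were not. The CCAAT box was in 14 of 40 (35%), against 37.4%. These are matches of letters in a fixed window and describe the promoters, not binding.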

How the data were processed

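Per the file headers, the authors scanned 1-colour Agilent arrays, and Feature Extraction 10.5.1.1 made the deposited processed intensity values, subtracting background and detrending within each array. Per the submitters' processing notes, limma was used too. Here each intensity was divided by its array's 75th percentile over gene spots and log2 transformed, spots of a probe were averaged and outlier spots left out (0.0703% of values). A probe was kept if well above background on at least 6 of 24 arrays, and the brightest kept probe stood for a gene. limma 3.58.1 in R 4.3.3 fitted all 24 arrays, tested first on simulated data. Groups come from the sample titles. Nothing states more than 1 array per mouse.

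Alternatives were quantile and median scaling, normexp with offset 50, other filters, the mean of probes, slide or replicate blocks, fitting the compared groups alone, and leaving out each array. Values by group are given for the 3 members with the smallest p per comparison, the smallest of each role class in CON hearts, Psmb5 to Psmb10, Psme1, Psme2 and called genes of other lists. Other genes were named after their values were seen. The members and lists were chosen with earlier results of these data known. One promoter motif that was searched is not reported here.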

Additional observations from a re-analysis of the deposited data

Results flagged for a closer look

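In 2 of 84 groups of 6 arrays tested, 1 array lay far from the other 5; chance alone gives about 1 in 20. Psmd11 was 5.00 in CON STZ replicate 3, with the other CON STZ arrays at 3.99 to 4.31. Slc2a4 was 6.33 in mG4H VEH replicate 3, an array of slide 4, with the other mG4H VEH arrays at 6.52 to 6.61.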

How the results depend on the processing

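The count of proteasome genes called was 0 to 0 when each array was left out in turn, in all 5 comparisons, and 0 in the other alternatives except 1 in CON STZ hearts (Psme3) with slide as a random block. Over both genotypes the count of 3 became 0 under median scaling and 1 without the 3 STZ arrays. With the replicate number as a block, 0 members were called in each comparison. The 36 pairs of same-numbered arrays had r from -0.60 to 0.66, with 16 over 0.1. Their mean r was 0.0226, against -0.0040 for pairs with other numbers, and 9 of 24 arrays correlated best with their own number. Whether same-numbered arrays are related was not tested. Median scaling cut calls over all genes from 469 higher and 648 lower to 35 and 40 in CON STZ hearts. In mG4H STZ hearts it took the members above 0 to 7, with a median of -0.11. Over all genes in that comparison it took those above 0 from 17073 to 11788 of 28235, and the median from 0.06 to -0.05. Under median scaling Ifngr2 was not called by limma in CON STZ hearts (adjusted p = 0.484). Of 95 values of named members, 33 changed sign under at least 1 alternative, none of them called, and none was an STZ difference of Psme1, Psme2 or Psme3. The causes were not tested. With 6 arrays a group, differences of the size seen here could lie below what the test can call.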
